A study of Mus musculus with 7 samples.

Results

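The nuclear genes for the structural subunits of the oxidative phosphorylation complexes were examined for dimethylation of lysine 79 of histone H3 (H3K79me2) in mouse bone marrow-derived macrophages. Members were the RefSeq protein-coding genes of the mouse build mm10 whose symbols follow the naming of the Nduf (letters a, b, c, s and v, without the Ndufaf assembly factors), Sdh, Uqcr, Cyc1, Cox4 to Cox8 and Atp5 genes. There were 89 such genes among 21887 coding genes, and 80 of them were overlapped by at least 1 of the 29397 regions in the deposited read-count table. Where a gene had several regions, the one with the most counts on average was used. The 80 genes had 80 different regions, with 39 in complex I, 4 in complex II, 9 in complex III, 11 in complex IV and 17 in complex V. Genes were assigned to complexes by symbol alone, which places Ndufa4 and Ndufa4l2 in complex I.

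Macrophages were grown from C57BL/6 marrow for 7 to 8 days in medium containing L929 cell supernatant, which supplies the growth factor M-CSF. The 3 SGC0946 libraries came from cells given 1 µM of this inhibitor of the H3K79 methyltransferase DOT1L while they differentiated, and the 3 DMSO libraries from cells given only the solvent. The study's design text calls the libraries of each group biological replicates, while the growth protocol mentions both WT and KO mice and does not tell which were the source of these cells. Chromatin was fixed with 1% formaldehyde for 10 min and immunoprecipitated with an H3K79me2 antibody, and the single input sample was not used here.

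Oxidative phosphorylation passes electrons from NADH and succinate through complexes I and II to ubiquinone, then through complex III and cytochrome c to complex IV, which reduces oxygen. Complexes I, III and IV pump protons across the inner mitochondrial membrane, and complex V, the ATP synthase, uses the resulting gradient to make ATP. Complex II is encoded by nuclear genes alone, whereas the other complexes combine nuclear subunits with a few made from mitochondrial DNA, which carries no histones. In macrophages the balance of respiration and glycolysis differs between activation states. DOT1L places H3K79me2 on nucleosomes over the first part of transcribed genes, so that a region of the mark usually begins near the start site and runs into the gene body.

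The total count in regions was 3.13, 3.01 and 2.95 M in the SGC0946 libraries, against 16.7, 16.99 and 19.5 M in the DMSO libraries. Results are given on 2 scales: unscaled counts, which keep a fall of the whole library, and the share of a library, in which each count is divided by its library's total. The labels give only a nominal depth of 40 M reads per sample, and the size of the unscaled fall depends on the true one. Regions lay over all 8 macrophage genes examined, such as Csf1r and Spi1, over 3 of 9 genes of other blood cells, 1 of 6 stromal and endothelial genes and 0 of 4 genes of striated muscle. The 4 regions of the other cell types (Klf1, Lck, Mpo and Cxcl12) were 500 bp long, the shortest length in the table, and held at most 12 counts in any library. Their mean counts were higher with SGC0946 than with DMSO: 6 against 4 at Klf1, 5.67 against 1.33 at Lck, 9 against 3.67 at Mpo and 6 against 0.333 at Cxcl12. None of the 4 was tested in unscaled counts. Mixed cell types cannot be told apart from a lower level in all cells in such bulk samples.

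Regions were found at 80 of the 89 subunit genes, or 89.9%, against 43.5% of all coding genes. All genes of complexes II, III and V had a region, as did 39 of 41 in complex I and 11 of 18 in complex IV. The 9 genes without one were Ndufa4l2, Ndufb4c, Cox4i2, Cox6a2, Cox6b2, Cox7a1, Cox7b2, Cox8b and Cox8c. Among these are all 8 of a list of isoforms known for restricted or inducible expression: Cox6a2, Cox7a1 and Cox8b are the subunits of heart and skeletal muscle, Cox6b2, Cox7b2 and Cox8c are found mainly in testis, Cox4i2 is the lung isoform, and Ndufa4l2 is induced by low oxygen. Their widely expressed counterparts Cox4i1, Cox6a1, Cox6b1, Cox7a2, Cox7b, Cox8a and Ndufa4 all carried a region. The ninth, Ndufb4c, is a further copy of the complex I gene Ndufb4. Another copy, Ndufb4b, lies inside a region of 53381 bp over Dock8, a regulator of the leukocyte cytoskeleton, so its counts belong to that gene's region.

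Many subunit genes are short and have close neighbours, which limits what a count says about the subunit alone. The region touched no other coding gene for 48 members, 1 other for 27 and 2 others for 5. In 10 members the region had its longest overlap with another gene: Ndufa2 with Ik, Ndufb1 with Cpsf2, Ndufb10 with Rps2, Ndufb3 with Fam126b, Ndufb4b with Dock8, Ndufb9 with Tatdn1, Ndufs8 with Tcirg1, Sdha with Ccdc127, and Cox4i1 and Cox6a1 with genes beside them. Atp5j shared its region with Gabpa, which encodes the DNA-binding subunit of a transcription factor (GABP) that acts on respiratory genes. The gene spans used come without exons, so overlap with exons and introns was not told apart. Of the 80 members, 68 had a single region and 12 had between 2 and 9.

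The regions lay over the 5' part of the genes. An annotated start site was at hand for 67 members, and the region covered it in 57. Among the 42 of these whose region touched no other coding gene, the upstream edge lay at a median of -116.5 bp from the start and the downstream edge at 3874 bp. In 32 of the 42 the upstream edge was within 350 bp before the start, in 9 it lay after the start, and in Atp5g1 it was at -1032 bp. Over all 80 members the region covered a median of 72.2% of the gene, and 12 genes were covered in full. Among the 42 genes with an unshared region and a known start, the upstream edge farthest from the start was that of Ndufs4, an accessory subunit of complex I whose loss in mice gives a fatal encephalopathy. This gene of 100300 bp held 9 separate regions, and the one with the most counts began 4669 bp after the start. Ndufv1, which encodes the subunit that binds NADH and the flavin cofactor, had only a region of 500 bp starting 558 bp inside the gene.

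**Figure D1:**
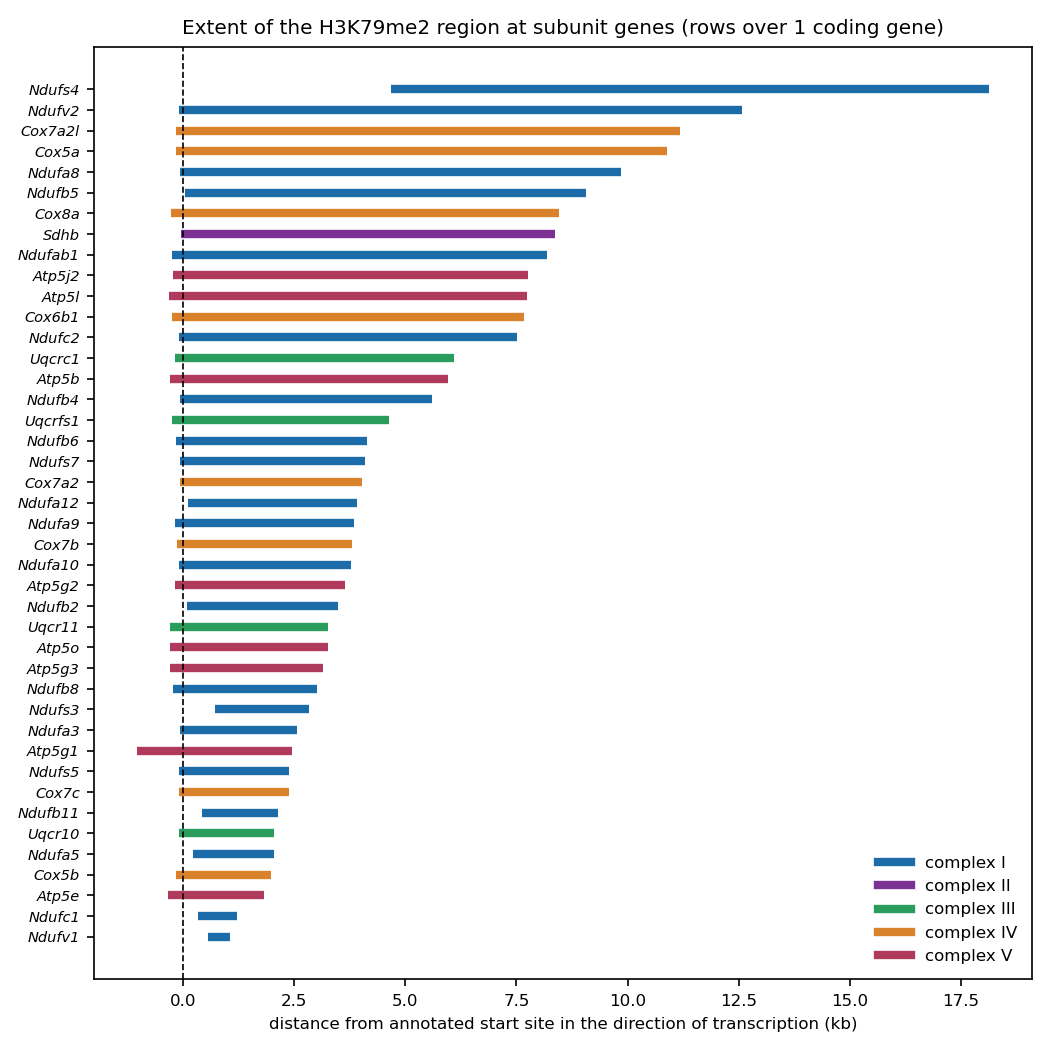
Horizontal bars show the extent of the H3K79me2 region of each subunit gene whose region touches no other coding gene (n = 42), in kb from the annotated start site (dashed line) in the direction of transcription, coloured by complex. In 33 of the 42 genes the bar crosses the start site, and the median downstream edge is 3874 bp after it.

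Promoters of several subunit genes are known to hold sites for NRF1, for GABP and other ETS factors, and for YY1. In the RefSeq windows of GRCm38.p6, from 250 bases before to 50 bases after the start, exact matches on either strand were searched for the NRF1 motif, the ETS core (CCGGAAG) and the YY1 motif. An NRF1 match was present in 16 of the 67 members with a region and a window (23.9%), against 11.9% of 7757 coding genes with a region and 6.66% of all 17492 windows. An ETS match was present in 16 members (23.9%), against 21.4% and 11.9% of those sets. A YY1 match was present in 4 members (5.97%), against 2.55% and 1.27%. At least 1 of the 3 motifs was found in 31 members (46.3%), against 32.4% and 18.2%, and in 0 of the 4 members that had a window but no region. Matches of different motifs overlapped in 0 of the 67 windows. A match is a description of the letters in the window and not of factor binding.

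Upstream windows of 5 members, 4 with matches (in capitals) and 1 without, are shown for where the matches lie relative to the start. Matches were present and absent both among members that kept little of their DMSO count and among those that kept more. Ndufa13 and Ndufc2 kept 10.7% and 11.1% of their DMSO count and had 0 matches, whereas Sdha kept 15.3% with 3 NRF1 matches, Atp5l 17.9% with 2 ETS matches and Ndufs8 19.9% with 1 ETS match. Other members went the opposite way. Ndufa11 kept 10.2% with 1 NRF1 match and Ndufb4 10.7% with 3, while Atp5b kept 21.0% and Cox7b 19.6% with 0 matches. Each window shown is the 250 bases before the start on GRCm38.p6, 5' to 3' in the direction of transcription. Ndufb4 (chr16:37654369-37654618, minus strand) holds 3 NRF1 matches beginning at -191, -79 and -22, Cox6a1 (chr5:115348959-115349208, minus strand) has NRF1 matches at -162 and -117 and an ETS match at -16, Uqcr11 (chr10:80406822-80407071, minus strand) has an ETS match at -66 and Atp5g2 (chr15:102671048-102671297, minus strand) an NRF1 match at -42. The window of Atp5b (chr10:128083057-128083306, plus strand) holds 0 matches of the 3 motifs. The H3K79me2 region reached over all 250 bases in Uqcr11, Cox6a1 and Atp5b, over 179 in Atp5g2 and over 63 in Ndufb4.
Ndufb4: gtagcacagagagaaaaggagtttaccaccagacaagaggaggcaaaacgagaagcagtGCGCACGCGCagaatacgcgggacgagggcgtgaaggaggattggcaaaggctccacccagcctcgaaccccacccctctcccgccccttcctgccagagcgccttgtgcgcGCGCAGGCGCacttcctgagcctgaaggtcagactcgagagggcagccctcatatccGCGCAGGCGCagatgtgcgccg
Cox6a1: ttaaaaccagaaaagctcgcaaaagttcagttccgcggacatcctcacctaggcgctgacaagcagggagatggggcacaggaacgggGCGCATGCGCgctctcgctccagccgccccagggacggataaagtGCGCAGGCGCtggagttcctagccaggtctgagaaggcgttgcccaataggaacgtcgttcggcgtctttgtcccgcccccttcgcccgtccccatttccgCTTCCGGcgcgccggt
Uqcr11: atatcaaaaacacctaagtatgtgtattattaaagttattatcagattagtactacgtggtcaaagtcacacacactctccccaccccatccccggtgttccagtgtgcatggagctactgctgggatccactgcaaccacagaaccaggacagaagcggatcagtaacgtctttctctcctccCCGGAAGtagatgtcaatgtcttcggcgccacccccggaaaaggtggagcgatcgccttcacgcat
Atp5g2: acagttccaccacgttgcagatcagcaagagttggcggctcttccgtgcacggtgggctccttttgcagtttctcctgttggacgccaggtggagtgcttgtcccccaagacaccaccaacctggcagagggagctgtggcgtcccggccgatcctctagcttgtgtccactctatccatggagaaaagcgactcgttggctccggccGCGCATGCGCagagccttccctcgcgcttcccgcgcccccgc
Atp5b: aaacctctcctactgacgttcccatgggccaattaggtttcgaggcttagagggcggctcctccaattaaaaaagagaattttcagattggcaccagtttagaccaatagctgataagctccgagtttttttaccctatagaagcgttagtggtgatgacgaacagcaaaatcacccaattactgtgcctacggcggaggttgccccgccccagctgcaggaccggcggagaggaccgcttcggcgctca

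Read density, in counts per kb of region, gives a level that can be compared between genes. The 80 members had a median of 17.6 counts per kb with SGC0946 and 136 with DMSO, against 15.7 with SGC0946 and 125 with DMSO over the 7942 coding genes whose region had a mean of at least 50 counts. By complex, the median density was 12.6 with SGC0946 and 110 with DMSO in complex I, and 21.5 with SGC0946 and 148 with DMSO in complex II. It was 22.4 with SGC0946 and 171 with DMSO in complex III, 22.8 with SGC0946 and 155 with DMSO in complex IV, and 22.3 with SGC0946 and 148 with DMSO in complex V. Complex I was thus the sparsest in both groups. The densest member was Atp5l, subunit g of the ATP synthase membrane part, with 52.2 counts per kb with SGC0946 and 293 with DMSO. It was followed in DMSO by Cox7a2l (259), Cox5a (246), Ndufs8 (245) and Atp5a1 (244). The sparsest in DMSO was Ndufa1, a small membrane subunit of complex I, with 6.91 counts per kb with SGC0946 and 38.5 with DMSO. The sparsest with SGC0946 was Ndufv1, with 6.67 counts per kb with SGC0946 and 54.0 with DMSO.

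Setting SGC0946 against DMSO shows how far the counts in these regions fell when DOT1L was inhibited. No spike-in is named and the input was not subtracted, so the percentage kept is one of counts and not of the mark itself. In unscaled counts all 80 members fell (edgeR quasi-likelihood test, adjusted p between 3.4e-168 and 1.0e-11), with log2 fold changes of -3.30 to -2.25 and a median of -2.88. The 3 SGC0946 libraries were below all 3 DMSO libraries at every one of the 80 members. The fall was general: 99.7% of all 24895 regions tested were called lower, 0.0201% were called higher, and the groups did not overlap in 99.3%. With 1 region per coding gene, 99.8% of 9094 genes were called lower. The subunit genes kept between 10.2% and 21.0% of their mean DMSO count, with a median of 13.5% and the middle 50% of members between 12.3% and 14.7%. Coding genes with a mean of at least 50 counts kept a median of 13.7%, with the middle 50% between 12.2% and 15.9%.

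**Figure D2:**
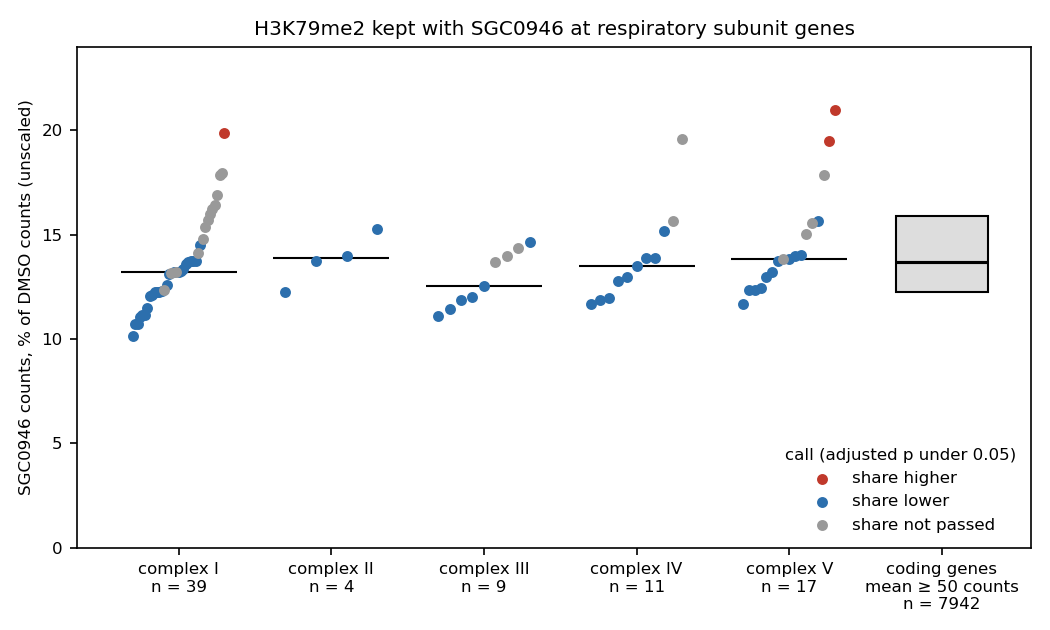
Each point is a subunit gene, placed by complex, with its mean SGC0946 count as a percentage of its mean DMSO count on the vertical axis (unscaled counts) and coloured by its call on the library-share scale; black bars are group medians, and the last column gives the median and the middle 50% of coding genes with a mean of at least 50 counts. The members lie between 10.2% and 21.0%, with the 3 genes whose share was higher (Ndufs8 of complex I, Atp5a1 and Atp5b of complex V, all negative when scaled on the sparsest 25% of regions) near the top.

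As a share of the library total, 55 of 80 subunit genes were lower with SGC0946 when library totals were used, a count that depended on the scaling. It was 38 with TMM, 33 with DESeq2's size factors, 24 in DESeq2's Wald test, 5 with cyclic loess, and 80 when the 25% of regions with the lowest density set the scale. With library totals 55 fell, 3 rose (Ndufs8, Atp5a1 and Atp5b) and 22 did not pass the test (edgeR, adjusted p under 0.05 over 23367 regions), a split that became 5 lower and 6 higher with cyclic loess scaling, which evens out the trend with mean count. Over all regions tested, 23.3% were called lower and 6.16% higher. With 1 region per coding gene, 50.1% of 9089 were lower and 9.98% higher. Among the coding genes with at least 50 counts on average, which are nearer to the members in depth, 57.3% were called lower and 10.1% higher, beside 68.8% and 3.75% of the members. By complex, 64.1, 100, 66.7, 81.8 and 64.7% of the members in I to V were called lower. The percentages called higher were 2.56, 0, 0, 0 and 11.8% in the same order. The median log2 share change was -0.33 over the members, against -0.32 over those coding genes and -0.087 over all regions. The median of the members is thus close to that of other genes of like depth, and 73 of the 80 members had a negative log2 share change. The groups did not overlap in share at 63 of the 80 members, nor at 5979 of the 7942 coding genes with a mean of at least 50 counts. Groups that are apart in share were thus common among coding genes.

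Summed over the 80 regions, the subunit genes held 0.412, 0.418 and 0.420% of the counts in the SGC0946 libraries, against 0.502, 0.506 and 0.507% in the DMSO libraries. The libraries of the groups did not overlap. No like sum was made for other genes. The median log2 share change was -0.33 over the members and -0.32 over coding genes with a mean of at least 50 counts, so a lower share was general at this depth. The means were 0.417 ± 0.00388% with SGC0946 and 0.505 ± 0.00238% with DMSO (SD, n = 3 each). Without the region shared with Dock8, the sums were 0.370 ± 0.00140% with SGC0946 and 0.448 ± 0.00261% with DMSO. In all, 32 of the 80 regions touched another coding gene, and apart from that of Dock8 these remain in the sums. Each complex was lower as well, with sums of 0.185% with SGC0946 and 0.228% with DMSO for complex I, and 0.0256% with SGC0946 and 0.0307% with DMSO for complex II. The sums were 0.0291% with SGC0946 and 0.0392% with DMSO for complex III, 0.0720% with SGC0946 and 0.0920% with DMSO for complex IV, and 0.105% with SGC0946 and 0.115% with DMSO for complex V.

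Members that did not pass in share had fewer counts as a group, from 27 to 2356 with DMSO, and also kept more. Their median kept was 15.5%, against 12.8% for members with a lower share, and 4 of them had a positive log2 share change. The 55 members with a lower share had a median DMSO count of 941 and a median standard error of 0.089 on the log2 scale, and the 22 that did not pass had a median DMSO count of 287 and a standard error of 0.15. By DMSO density, the median percentage kept was 13.7% in the 21 members under 100 counts per kb, 12.3% in the 29 members between 100 and 150, 13.6% in the 22 members between 150 and 200, and 16.8% in the 8 members of 200 or more. Coding genes with a mean of at least 50 counts gave 13.8, 12.5, 13.3 and 17.1% in the same classes. All 3 members with a higher share were in the densest class, where 678 of 1697 coding genes were called higher and 626 lower. Across genes, density and percentage kept had a Spearman correlation of 0.12 over the 80 members and 0.18 over the 7942 coding genes. These values share the same libraries and the DMSO count enters both axes, so they are given as a description.

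**Figure D3:**
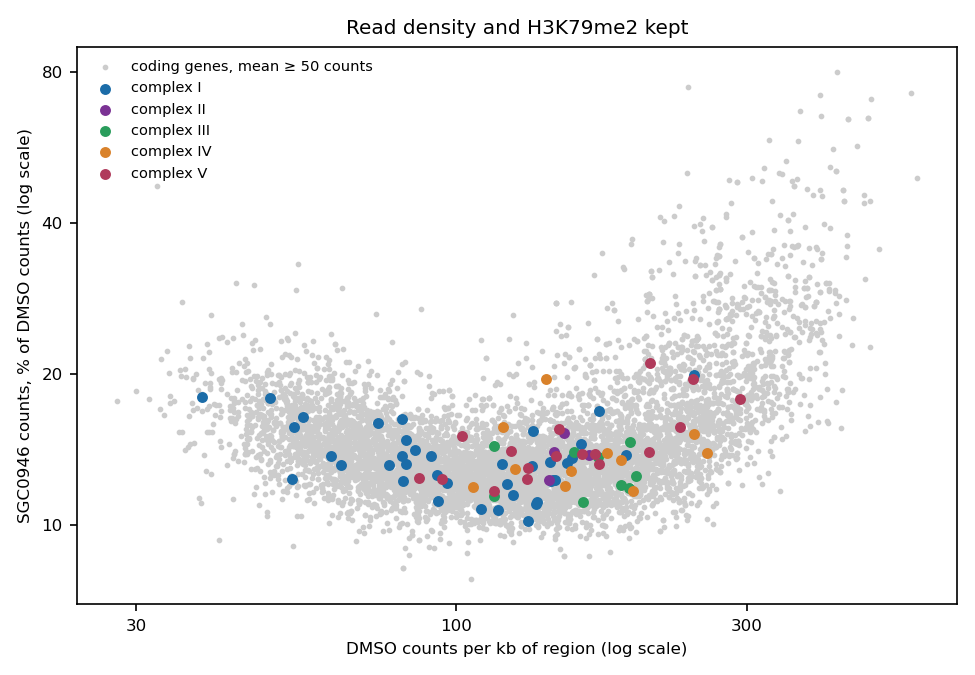
Each point is 1 gene, with the DMSO counts per kb of its region on the horizontal axis and its SGC0946 count as a percentage of its DMSO count on the vertical axis (both log scales); grey points are the 7942 coding genes with at least 50 counts on average, and coloured points are subunit genes by complex. The subunit genes lie within the cloud of other genes, and their median kept is 12.3% between 100 and 150 counts per kb and 16.8% at 200 or more.

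Complex I, the NADH dehydrogenase, had 39 members with a region, of which 25 fell in share, 1 rose and 13 did not pass, with a median of 13.2% kept. Ndufs8, an iron-sulfur subunit of the peripheral arm, was the member that rose, and its region (chromosome 19, 3896558 to 3912054) has its longest overlap with Tcirg1, a subunit of the vacuolar proton pump, and begins 720 bp after the annotated start of Ndufs8. It had 770, 707 and 790 counts in the SGC0946 libraries, against 3717, 3611 and 4081 in the DMSO libraries. All SGC0946 libraries were far below all DMSO libraries. As counts per 1e6 of the library total (CPM) these are 246, 235 and 268 CPM in the SGC0946 libraries, against 222, 213 and 209 in the DMSO libraries, and here every SGC0946 library was above every DMSO library (log2 0.22 ± 0.048, SE, edgeR adjusted p = 0.000173). It kept 19.9% of the DMSO count, but scaling on the sparsest 25% of regions turned its log2 share change to -0.46.

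Ndufa11, an accessory subunit of the membrane arm, kept the least of all 80 members, 10.2%. Its region (chromosome 17, 56717625 to 56721796), which also touches Vmac, had 55, 58 and 54 counts in the SGC0946 libraries, against 552, 506 and 585 in the DMSO libraries. The SGC0946 libraries agree closely with each other and lie far below the DMSO libraries. The log2 share change was -0.75 ± 0.12 (SE, edgeR adjusted p = 3.0e-07). Ndufa13, also known as GRIM-19, an accessory subunit and a partner of STAT3, was similar, with 110, 109 and 85 counts in the SGC0946 libraries, against 909, 917 and 1005 in the DMSO libraries. It kept 10.7%, at a log2 share change of -0.67 ± 0.092 (SE, edgeR adjusted p = 7.9e-09). Ndufb4, an accessory subunit of the membrane arm whose upstream window is printed among the sequences, was as low with 10.7% kept, and Ndufs7, which holds the last iron-sulfur cluster before ubiquinone, kept 11.0%.

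The catalytic subunits of complex I, which carry electrons from NADH to ubiquinone, included Ndufs1 and Ndufv1. Ndufs1, the largest iron-sulfur subunit, had 163, 152 and 151 counts in the SGC0946 libraries, against 1061, 1077 and 1346 in the DMSO libraries. The groups were well apart in counts and in share, and the log2 share change was -0.35 ± 0.079 (SE, edgeR adjusted p = 0.000217). Its sign changed with cyclic loess scaling (0.00013). Ndufv1 had 1, 7 and 2 counts in the SGC0946 libraries, against 34, 20 and 27 in the DMSO libraries. It fell in unscaled counts (log2 -2.97 ± 0.43, SE, edgeR adjusted p = 1.0e-11), but at this depth a change of its share was not detectable (adjusted p = 0.581). Ndufa1 had 15, 17 and 17 counts in the SGC0946 libraries, against 74, 93 and 106 in the DMSO libraries, and its log2 share change of 0.074 ± 0.24 (SE) was the second highest of complex I among members with a mean of at least 50 counts, without passing the test (edgeR adjusted p = 0.870). Its share values overlapped between the groups.

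Complex II, succinate dehydrogenase, links the citric acid cycle to the respiratory chain, and all 4 of its genes fell in share with library totals, though 3 changed sign with cyclic loess scaling. They kept 12.3 to 15.3%. Sdha, the flavoprotein that oxidizes succinate, had 387, 342 and 335 counts in the SGC0946 libraries, against 2092, 2325 and 2545 in the DMSO libraries. The groups were far apart in counts but nearly touched in share, at 124, 114 and 113 CPM in the SGC0946 libraries, against 125, 137 and 130 in the DMSO libraries. It kept 15.3% at a log2 share change of -0.16 ± 0.059 (SE, edgeR adjusted p = 0.0298). Its region (chromosome 13, 74344383 to 74359786) has more overlap with its neighbour Ccdc127 and also touches Lrrc14b. Sdhb, the iron-sulfur subunit (chromosome 4, 140961224 to 140969643), had 176, 188 and 148 counts in the SGC0946 libraries, against 1128, 1197 and 1339 in the DMSO libraries. It touched no other coding gene and kept 14.0% (log2 share change -0.29 ± 0.077, SE, edgeR adjusted p = 0.00188).

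The membrane anchors of complex II, which hold the ubiquinone site, fell too. Sdhc had 99, 100 and 83 counts in the SGC0946 libraries, against 748, 733 and 818 in the DMSO libraries, and kept 12.3% (log2 share change -0.48 ± 0.10, SE, edgeR adjusted p = 3.8e-05). Sdhd had 165, 160 and 147 counts in the SGC0946 libraries, against 1027, 1099 and 1304 in the DMSO libraries, and kept 13.8% (log2 share change -0.31 ± 0.079, SE, edgeR adjusted p = 0.00106). In both genes the SGC0946 libraries were below the DMSO libraries in counts and in share. The region of Sdhd also spans Timm8b and Nkapd1. The calls of Sdha, Sdhb and Sdhd were lost with TMM scaling (adjusted p = 0.637, 0.0821 and 0.0557), and these 3 changed sign with cyclic loess scaling (0.10, 0.045 and 0.039). The call of Sdha was also lost without SGC0946 replicate 2 or 3 or DMSO replicate 2 or 3 (adjusted p = 0.122, 0.121, 0.0877 and 0.0512), and that of Sdhb without SGC0946 replicate 3 (0.057).

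Complex III, the cytochrome bc1 complex, had 9 members, of which 6 fell in share, 0 rose and 3 did not pass (Uqcr10, Uqcrb and Uqcrq). It had the lowest median kept of the complexes, 12.5%, though the middle values of the complexes lie within 12.5 to 13.9% and no test between them was made. The core proteins kept the least: Uqcrc2 (chromosome 7, 120635037 to 120639123) had 77, 72 and 71 counts in the SGC0946 libraries, against 651, 634 and 699 in the DMSO libraries, and Uqcrc1 (chromosome 9, 108936477 to 108942741) had 87, 89 and 73 counts in the SGC0946 libraries, against 693, 687 and 796 in the DMSO libraries. In both the groups were apart by a wide margin. Uqcrc2 kept 11.1% (log2 share change -0.62 ± 0.11, SE, edgeR adjusted p = 1.2e-06) and Uqcrc1 11.4% (-0.58 ± 0.10, adjusted p = 2.2e-06).

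The catalytic subunits of complex III gave a wider spread. Cyc1, cytochrome c1, had 67, 83 and 67 counts in the SGC0946 libraries, against 578, 598 and 632 in the DMSO libraries, with a log2 share change of -0.51 ± 0.11 (SE, edgeR adjusted p = 0.000110). Its region covered the whole gene. Uqcrfs1, the Rieske iron-sulfur protein, had 147, 133 and 135 counts in the SGC0946 libraries, against 859, 919 and 1058 in the DMSO libraries, and kept 14.6% (log2 share change -0.22 ± 0.083, SE, edgeR adjusted p = 0.0349). Its call was lost with TMM scaling (adjusted p = 0.366), without any 1 of the SGC0946 replicates (0.0725, 0.143 and 0.0867 without replicates 1, 2 and 3) and without DMSO replicate 3 (0.0687). Cyclic loess scaling gave it a positive value of 0.14. Uqcrh, the hinge protein that helps join cytochromes c1 and c, was the densest member of the complex, with 303, 273 and 258 counts in the SGC0946 libraries, against 2053, 2151 and 2446 in the DMSO libraries, and kept 12.5% (edgeR adjusted p = 7.4e-09), in a region shared with Lrrc41. Uqcrq, a small subunit next to cytochrome b, had 45, 40 and 35 counts in the SGC0946 libraries, against 248, 296 and 292 in the DMSO libraries, and its log2 share change of -0.25 ± 0.15 (SE) did not pass (edgeR adjusted p = 0.232).

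Complex IV, cytochrome c oxidase, had 11 members with a region, of which 9 fell in share, 0 rose and 2 did not pass. All are nuclear subunits that surround a catalytic core made in the mitochondrion. Cox4i1, a subunit needed for assembly and for the response to ATP, had 424, 389 and 391 counts in the SGC0946 libraries, against 3318, 3229 and 3741 in the DMSO libraries. The groups were far apart, with 11.7% kept and a log2 share change of -0.55 ± 0.053 (SE, edgeR adjusted p = 1.1e-13). This region of 17583 bp (chromosome 8, 120655955 to 120673537) also spans Emc8 and Gm27021. Cox6c, a small membrane subunit, had 92, 78 and 86 counts in the SGC0946 libraries, against 660, 703 and 791 in the DMSO libraries. It kept 11.9% in a region with no other coding gene that covered the whole gene, at a log2 share change of -0.52 ± 0.10 (SE, edgeR adjusted p = 1.4e-05).

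Other subunits of complex IV kept more. Cox5a, which lies on the matrix side, had 393, 448 and 395 counts in the SGC0946 libraries, against 2561, 2558 and 3028 in the DMSO libraries, and kept 15.2% (log2 share change -0.17 ± 0.056, SE, edgeR adjusted p = 0.0146). That call was lost with TMM scaling and without SGC0946 replicate 1 (adjusted p = 0.566 and 0.242), and the sign changed with cyclic loess scaling (0.069). Cox7a2l, also called SCAF1, which joins complexes III and IV into supercomplexes and is carried by C57BL/6 mice in a shortened form, had 405, 372 and 444 counts in the SGC0946 libraries, against 2824, 2763 and 3207 in the DMSO libraries. It kept 13.9% (log2 share change -0.30 ± 0.057, SE, edgeR adjusted p = 1.3e-05), a call lost with DESeq2 size factors (0.108). Cox7b, a small membrane subunit encoded on the X chromosome, stood at the top of the complex with 114, 109 and 103 counts in the SGC0946 libraries, against 509, 531 and 625 in the DMSO libraries. Its share was 36.4, 36.3 and 34.9 CPM in the SGC0946 libraries, against 30.4, 31.3 and 32.0 in the DMSO libraries. The SGC0946 libraries were all above the DMSO libraries in share, yet the log2 share change of 0.20 ± 0.10 (SE) did not pass (edgeR adjusted p = 0.129). It passed as higher with TMM scaling (0.30, adjusted p = 0.0128) and had the opposite sign when scaled on the sparsest 25% of regions (-0.51). Cox7c, another small subunit, had 50, 39 and 50 counts in the SGC0946 libraries, against 247, 309 and 331 in the DMSO libraries, which overlap in share. It kept 15.7% without passing (edgeR adjusted p = 0.605).

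**Figure D4:**
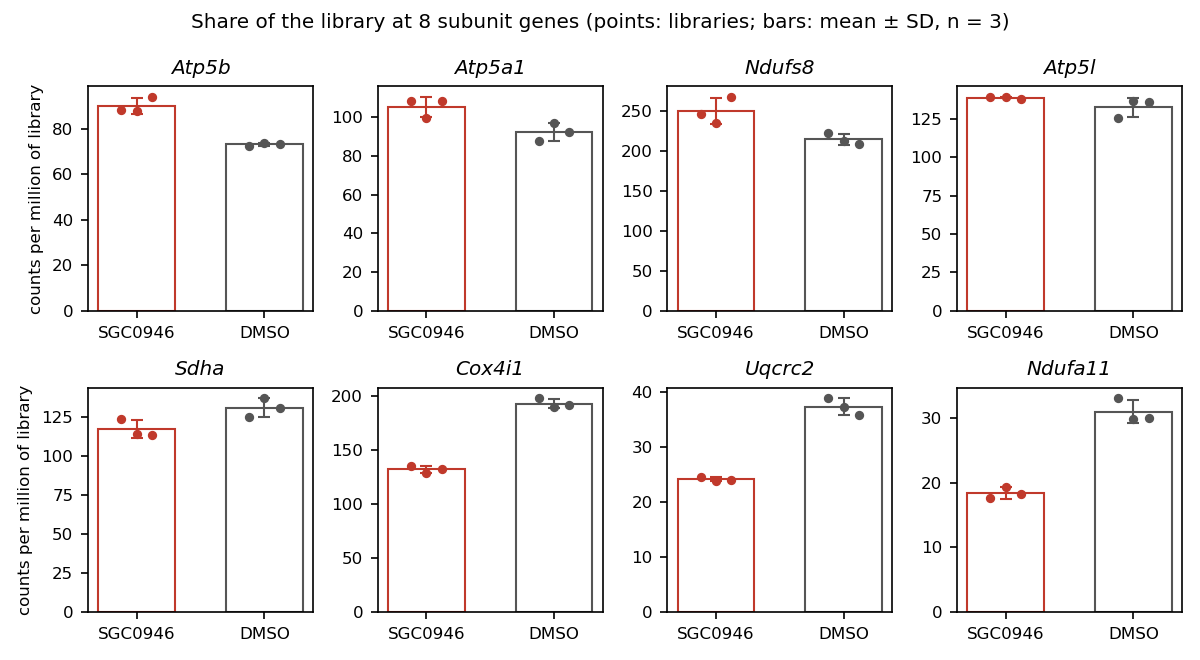
The share of the library, in CPM, is plotted for 8 subunit genes, with SGC0946 left of DMSO; points are libraries and bars are means ± SD (n = 3). Atp5b and Ndufs8 are higher in every SGC0946 library, while Ndufa11 and Cox4i1 are lower in every SGC0946 library; when scaled on the sparsest 25% of regions, the first pair has negative log2 changes as well (-0.39 and -0.46).

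Complex V, the ATP synthase, had 17 members, of which 11 fell in share, 2 rose and 4 did not pass. The 2 that rose encode the alpha and beta subunits, which together form the catalytic head. They are 11.8% of the members of the complex, near the 10.1% called higher among coding genes with a mean of at least 50 counts. Atp5b, the catalytic beta subunit (chromosome 10, 128083021 to 128089274), had 277, 264 and 278 counts in the SGC0946 libraries, against 1213, 1256 and 1431 in the DMSO libraries. The region touched no other coding gene, and the groups were far apart in counts. Its share was 88.4, 87.8 and 94.2 CPM in the SGC0946 libraries, against 72.5, 73.9 and 73.3 in the DMSO libraries. All SGC0946 libraries were above all DMSO libraries on this scale (log2 0.30 ± 0.066, SE, edgeR adjusted p = 0.000153), and the 21.0% kept was the highest of all members. Atp5a1, the alpha subunit, had 339, 299 and 320 counts in the SGC0946 libraries, against 1464, 1648 and 1799 in the DMSO libraries, in a region shared with Haus1 (chromosome 18, 77772811 to 77779506). It kept 19.5% (log2 share change 0.19 ± 0.063, SE, edgeR adjusted p = 0.0131). Its call was lost without SGC0946 replicate 1 or replicate 3 (adjusted p = 0.0842 and 0.0645). When scaled on the sparsest 25% of regions, both genes had negative values, -0.39 for Atp5b and -0.50 for Atp5a1.

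No other subunit of the complex passed as higher in share with library totals. Atp5c1, the gamma subunit that turns inside the head, had 757, 768 and 812 counts in the SGC0946 libraries, against 4725, 4656 and 5530 in the DMSO libraries, in a region of 21307 bp shared with Kin. It kept 15.7% (log2 share change -0.12 ± 0.047, SE, edgeR adjusted p = 0.0392). The share values of the groups overlapped, the call was lost with TMM scaling (adjusted p = 0.911) and without SGC0946 replicate 1 or 2 or DMSO replicate 1 or 3 (0.352, 0.0834, 0.0523 and 0.109), and the sign changed with cyclic loess scaling (0.034). The delta subunit gene Atp5d kept 14.0% (edgeR adjusted p = 0.0197), and the epsilon subunit gene Atp5e kept 13.8% without passing (0.0886). Atp5o, the subunit that confers oligomycin sensitivity, kept 13.8% (adjusted p = 0.0245). Atp5j, coupling factor 6 of the stalk, had 148, 154 and 147 counts in the SGC0946 libraries, against 1234, 1154 and 1455 in the DMSO libraries, in the region it shares with Gabpa. The groups were well apart, and it kept the least of the complex, 11.7% (log2 share change -0.55 ± 0.079, SE, adjusted p = 2.8e-08).

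The 3 genes Atp5g1, Atp5g2 and Atp5g3 encode the same mature c subunit of the rotor ring with different import sequences, and all 3 fell in share. Atp5g1 had 43, 30 and 50 counts in the SGC0946 libraries, against 311, 312 and 372 in the DMSO libraries. Atp5g2 had 57, 65 and 63 counts in the SGC0946 libraries, against 446, 504 and 549 in the DMSO libraries. Atp5g3 had 71, 73 and 63 counts in the SGC0946 libraries, against 423, 511 and 572 in the DMSO libraries. In each gene the groups did not overlap in counts or in share, as was usual for coding genes of at least 50 counts. The genes kept 12.4%, 12.3% and 13.7% in that order (log2 share change -0.46 ± 0.15, -0.47 ± 0.12 and -0.31 ± 0.12, SE, edgeR adjusted p = 0.00911, 0.000961 and 0.0340). Whether the 3 genes differ from each other was not tested. The call of Atp5g1 was lost without SGC0946 replicate 2 (adjusted p = 0.233). That of Atp5g3 was lost with TMM scaling (0.19), without SGC0946 replicate 1 or 3 (0.106 and 0.145) and without DMSO replicate 2 or 3 (0.0652 and 0.0704), and its sign changed with cyclic loess scaling (0.068).

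In the membrane part of complex V, Atp5l had 436, 418 and 408 counts in the SGC0946 libraries, against 2099, 2318 and 2650 in the DMSO libraries. Its share was 139, 139 and 138 CPM in the SGC0946 libraries, against 125, 136 and 136 in the DMSO libraries, so the SGC0946 libraries lay just above the DMSO libraries. It kept 17.9%, and the log2 share change of 0.066 ± 0.056 (SE) did not pass (edgeR adjusted p = 0.441), while cyclic loess scaling called it higher (0.32) and sparse-region scaling lower (-0.63).

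Genes that serve the complexes without being subunits of them were read from the same test, with library totals as the scale. Their values under the other scalings are not given here, and calls of subunit genes depended on the scaling. Of 49 assembly factors, 43 had a region and 42 could be tested in share: 20 fell, 1 rose and 21 did not pass, with a median log2 share change of -0.32. These are 47.6% lower and 2.38% higher, beside 50.1% and 9.98% of all coding genes. The one that rose was Cox20, a chaperone for a catalytic subunit of complex IV, in a region that also touches another coding gene, with 1678, 1491 and 1593 counts in the SGC0946 libraries, against 4451, 5217 and 5477 in the DMSO libraries. It kept 31.4% (log2 0.88 ± 0.044, SE, edgeR adjusted p = 4.3e-27). The lowest was Cox18, which inserts a complex IV subunit into the inner membrane, with 10.6% kept (edgeR adjusted p = 0.0167), and Lrpprc, which stabilizes mitochondrial transcripts, kept 11.5% (adjusted p = 3.4e-11). All 21 genes for electron carriers, ubiquinone synthesis and nucleotide or phosphate exchange had a region, and 8 fell in share (38.1%), 2 rose (9.52%) and 11 did not pass. Those that rose were Slc25a3, the mitochondrial phosphate carrier that supplies the ATP synthase (19.6% kept, adjusted p = 0.0186), and Vdac2, a pore of the outer membrane (20.2%, adjusted p = 1.9e-05), whose region spans 3 coding genes. Cycs, cytochrome c itself, kept 17.1% without passing (adjusted p = 0.989).

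Of 14 regulators of mitochondrial gene expression, 12 had a region, and Ppargc1a and Tfb1m had none. In share 8 fell (66.7%), 2 rose (16.7%) and 2 did not pass (edgeR, adjusted p under 0.05), beside 50.1% lower and 9.98% higher over all coding genes. Coding genes with a mean of at least 50 counts, a depth that all of these regulators but Polrmt reached, gave 57.3% lower and 10.1% higher. Gabpa, among the 8, has the region that also stands for the subunit gene Atp5j. The lowest were the coactivator gene Ppargc1b, with 43, 49 and 49 counts in the SGC0946 libraries, against 416, 455 and 534 in the DMSO libraries, and its nuclear receptor partner Esrra, with 107, 124 and 131 counts in the SGC0946 libraries, against 1183, 1087 and 1271 in the DMSO libraries. They kept 10.0% and 10.2% (log2 share change -0.76 ± 0.13 and -0.74 ± 0.087, SE, edgeR adjusted p = 1.0e-06 and 6.3e-11), and in both the groups did not overlap. The region of Esrra also touches another coding gene. Nrf1 kept 14.8% (adjusted p = 0.000138) and Tfam, which packages mitochondrial DNA, kept 12.3% (adjusted p = 0.0200). The 2 that rose in share were Pprc1, a coactivator of the same family as Ppargc1b (20.3% kept, log2 0.25 ± 0.056, adjusted p = 0.000225), and Yy1 (20.0% kept, log2 0.23 ± 0.038, adjusted p = 7.7e-07). These rises are given for library totals only, and whether they hold under the other scalings is not reported here. Scaling on the sparsest 25% of regions gave a median of -0.82 over all regions, against -0.087 with library totals.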

How the data were processed

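The authors deposited read counts as whole numbers, not normalized, for 29397 regions in 6 H3K79me2 ChIP libraries. The submitters' processing notes name mm10, R 3.6.3, ChIPseeker 1.20.0, HISAT2, bedtools 2.27.0 and HOMER 4.11.1. The tool behind the region calls and the counting, and the handling of duplicate reads, are not stated in the labels. Duplicate removal could change totals between groups. Library totals were 2.95 to 19.5 M counts, which limits the precision at regions with few counts.

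Region starts were read as zero-based and are given 1-based. Regions were joined to RefSeq GRCm38.p6 (mm10) coding-gene spans by an overlap of at least 1 bp, in Python 3.11.15 with pandas 2.3.3. The tests used edgeR 4.0.16 under R 4.3.3 (F test of the quasi-likelihood fit, filterByExpr by group, Benjamini-Hochberg over all regions), with library totals (share) or 1 equal library size (unscaled). All 80 members passed the filter in both fits. The edgeR step was tested on simulated share changes at regions drawn from the table, 50 for each size of change. It recovered 26% of 1.25-fold, 60% of 1.5-fold, 74% of 2-fold and 98% of 4-fold changes. There were 4 false calls among 22481 regions tested, and small changes at the regions drawn were thus often missed. Regions were drawn from the whole table above a minimum mean count, so the percentages recovered are not those of the subunit genes. Percentage kept is mean SGC0946 over mean DMSO count. Alternatives were TMM, DESeq2 1.42.0, the sparsest 25% of regions, cyclic loess with limma 3.58.1, other filters, summed or unshared regions, a replicate block and leaving out each library. Within groups, pairs of libraries differed beyond sampling noise.

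Full values were given, in each complex, for the 2 highest and 2 lowest log2 share changes among members with a mean of at least 50 counts, for the densest member and for a fixed set of core subunits. Some single genes are not reported here. Other genes, including those named from the assembly, carrier and regulator lists, were chosen after their values were seen. The members and lists were chosen with earlier results of these data known.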

Additional observations from a re-analysis of the deposited data

How the results depend on the processing

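In unscaled counts all 80 subunit genes were lower with no filter, with all regions of a gene summed, with the replicate block and without each library. All 78 left at a mean of at least 50 counts, and all 52 with regions over 1 coding gene only, were lower too. The count of genes lower in share was 38 with TMM and 55 with library totals. It was 24 in the Wald test of DESeq2, 33 when edgeR used DESeq2's size factors, 5 with cyclic loess, 80 with scaling on the sparsest 25%, 33 of 52 with regions over 1 coding gene only, and 46 to 58 when 1 library was left out. The count of genes higher in share was 4 with TMM, 0 with scaling on the sparsest 25%, 6 with cyclic loess, 1 with regions over 1 coding gene only, and 2 to 3 without 1 library. The median log2 share change was -0.33 with library totals, -0.23 with TMM, -0.22 in the Wald test of DESeq2, -0.22 when edgeR used its size factors, -1.04 with the sparsest 25%, -0.032 with cyclic loess and -0.37 to -0.31 without 1 library. The median of all regions was 0.031 with TMM, 0.029 with DESeq2's size factors, 0.093 in its Wald test, -0.82 with the sparsest 25% and -0.034 with cyclic loess, against -0.087 with library totals, so cyclic loess moved the members' median further than that of all regions. The summed share differed by -0.0883 percentage points, and by -0.0391 with regions over 1 coding gene only, a sum over fewer genes.

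Among single genes the sign of the log2 share change turned with the sparsest 25% in Atp5a1 (-0.50), Atp5b (-0.39), Atp5l (-0.63), Cox7b (-0.51), Ndufa1 (-0.64) and Ndufs8 (-0.46). With cyclic loess it turned in Atp5c1 (0.034), Atp5g3 (0.068), Cox5a (0.069), Ndufs1 (0.00013), Sdha (0.10), Sdhb (0.045), Sdhd (0.039) and Uqcrfs1 (0.14). For Sdhc another region, over 1 coding gene only, gave 0.78. Of 465 such values for named genes, 380 kept sign and call, 63 lost the call, 7 gained it and 15 turned. The cause was not tested.

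Same-numbered SGC0946 and DMSO libraries did not deviate together (correlations 0.00999, -0.114 and -0.0136), so the numbers were not taken as pairs. With the replicate block 49 genes were lower and 3 higher in share, the median was -0.33 and all 80 were lower in unscaled counts. Among named genes the block ended the calls of Atp5c1 (adjusted p = 0.0769), Atp5g3 (0.0533), Sdha (0.0501) and Uqcrfs1 (0.0604).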

Other observations

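Further regions of members with more than 1 region, outside the comparisons above, gave these values. The second region of Ndufs4 by counts, which lies nearest to its start (chromosome 13, 114384729 to 114388304), had 69, 54 and 71 counts in the SGC0946 libraries, against 401, 455 and 482 in the DMSO libraries, 14.5% kept. Summed over its 9 regions the gene kept 15.1%. A region of 1477 bp inside Sdhc (chromosome 1, 171138941 to 171140417) had 14, 13 and 7 counts in the SGC0946 libraries, against 30, 38 and 48 in the DMSO libraries, 29.3% kept, beside 12.3% in the gene's main region. A region of 6393 bp in Atp5pb, which encodes the stator b subunit of the ATP synthase (chromosome 3, 105943432 to 105949824), had 62, 83 and 60 counts in the SGC0946 libraries, against 543, 500 and 564 in the DMSO libraries, 12.8% kept, beside 15.6% in its main region.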
